A study of Mus musculus with 2 samples.

Results

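The genes described here encode voltage-gated calcium channels and voltage-gated sodium channels. They were measured in neural crest cells sorted from the hearts of mouse embryos. Members were all genes whose symbol begins with Cacna, Cacnb or Cacng, or is Scn followed by a number and the letter a or b, and that had at least 1 transcript cluster (the probe set of 1 transcript on the array) annotated to that gene alone. This gave 35 genes of 19938 measured in all. Where a gene had several clusters, the brightest stood for it.

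The study compared Adam19+/+; Wnt1-Cre; R26tdTomato/+ with Adam19-/-; Wnt1-Cre; R26tdTomato/+ cells, both on the C57BL/6 background and from hearts at stage E14.5. Adam19 encodes a membrane-anchored metalloprotease, and the loss of it is the only difference that the labels give. Both genotypes carried a tdTomato reporter that Wnt1-Cre, a driver of the neural crest, switches on, and the red cells sorted by flow cytometry were taken as cardiac neural crest cells. The Adam19 genotype is written with no floxed allele, so that the gene is missing also outside the neural crest. There was 1 array per genotype (Affymetrix Mouse Gene 1.0 ST), and the labels do not state how many embryos a sample came from. Without a replicate no test across samples can be made. Each difference below is the log2 signal of the Adam19-/- array minus that of the Adam19+/+ array and describes these samples only.

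A voltage-gated calcium channel is built on an alpha1 subunit, which forms the pore and senses voltage. An alpha2delta subunit outside the membrane and a beta subunit in the cytoplasm bring it to the cell surface and tune it, and the calcium it admits drives contraction, transmitter release and gene expression. Sodium channels have an alpha subunit of the same fold, which carries the upstroke of the action potential, and small beta subunits that modulate gating and adhesion. In descendants of the cardiac neural crest, L-type calcium channels serve arterial smooth muscle, while N-type calcium channels and sodium channels serve autonomic neurons.

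The labelled cells showed the markers of several neural crest derivatives. All 16 measured markers of autonomic neurons, all 14 of smooth muscle, all 12 of mesenchyme and 9 of 10 of Schwann cells and glia lay above the median mean signal of all genes, 8.01 on the log2 scale. This middle level is used below to call a signal bright, and it is no limit of detection. Of the cells that the reporter should not mark, 12 of 16 cardiomyocyte, 7 of 12 endothelial, 4 of 16 leukocyte and 2 of 12 skeletal muscle markers were bright. Adam19 itself was at 11.62 and 9.77, a difference of -1.85. Across all genes the central 95% of differences ran from -0.25 to 0.33, and from -0.20 to 0.29 among bright genes.

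Differences of the channel genes were small, and the largest was that of Cacng3, which was higher by 0.45 or 1.36-fold in Adam19-/- cells. No member differed by 2-fold, where 0% of all genes were higher and 0.0201% lower by that much. No member differed by 1.5-fold in either direction, where 0.155% of all genes were higher and 0.0552% lower by that much. Past a difference of 0.32 on the log2 scale, Cacng3 was the only member, and it was higher, against 2.72% of all genes higher and 1.03% lower. Just outside that threshold lay Cacng8, at 0.31 or 1.24-fold. By any amount, 20 members were higher, 12 were lower and 3 were exactly equal, where 51.7% of all genes were higher, 34.1% lower and 14.2% equal. The median difference of the members was 0.02, beside 0.01 for all genes. After each array was centred on its own median the split was 17 higher and 18 lower, with a median of -0.01. All genes then had 8535 higher and 11403 lower. The 3 members with equal deposited values count as lower there, as do the 14.2% of all genes that were equal.

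The mean signal of 15 members was bright, and that of 20 lay under the middle level. The bright members were Cacna1c, Cacna1a, Cacna1b, Cacna1g, Cacna1h, Cacna2d1, Cacna2d3, Cacnb1, Cacng3, Cacng4, Cacng7, Scn2a, Scn7a, Scn9a and Scn3b. Probes of different genes bind with different strength, so that a brighter signal of one gene than of another does not rank the amounts of their RNA. In a mixture of sorted cells, fewer cells of a type and less RNA per cell cannot be told apart.

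**Figure D1:**
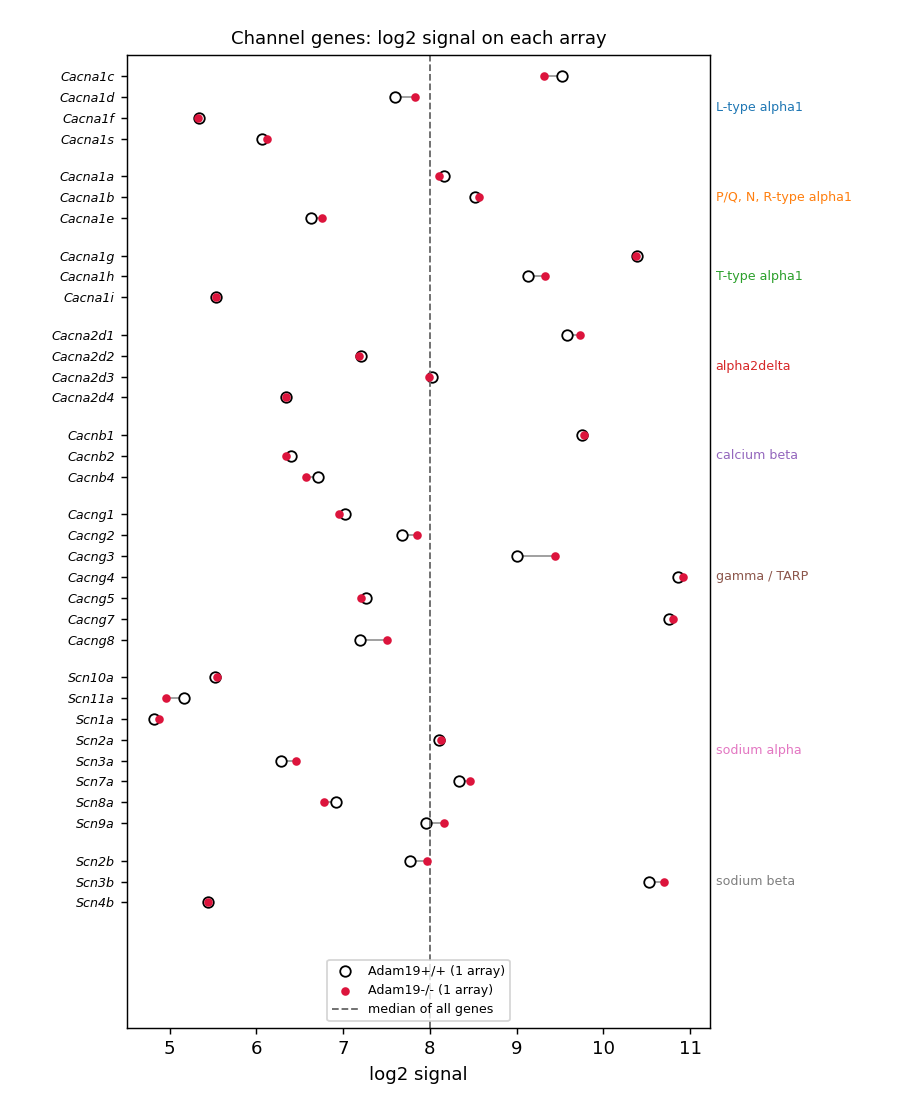
Log2 signal of the 35 channel genes (rows, grouped by subunit class) on the Adam19+/+ array (open circles) and the Adam19-/- array (filled red points), 1 array each, joined by a line. The dashed line marks the median mean signal of all genes, 8.01; the points of most genes lie close together, and Cacng3, at 9.00 and 9.45, has the longest line.

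Of the L-type alpha1 subunits, Cacna1c was lower and Cacna1d higher in Adam19-/- cells. Cacna1c encodes the main L-type pore of heart and smooth muscle. Its log2 signal was 9.52 without and 9.32 with the loss of Adam19, so that it differed by -0.20 or 1.15-fold. This was the 819th largest decrease of the 19938 genes. It was the largest decrease among the bright channel genes, and it lay just below the central 95% of differences of bright genes. Cacna1d, an L-type pore of neuroendocrine cells and of the sinoatrial node, was at 7.60 and 7.83, a difference of 0.23 or 1.18-fold, under the middle level on both arrays. The skeletal muscle pore Cacna1s was at 6.07 and 6.12, and the retinal pore Cacna1f at 5.34 and 5.32. Both were dim on both arrays, as were all skeletal muscle regulators listed (Myod1, Myog, Myf5 and Myf6). Of the 12 skeletal muscle markers, Ckm, at 8.41 and 8.19, and Acta1, at 8.72 and 8.59, were bright.

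Markers of smooth muscle differed in the same direction as Cacna1c. Of the 14 measured, all bright, 13 were lower and 1 was higher in Adam19-/- cells, where 3370 of 9969 bright genes were lower. The median difference of these markers was -0.11. Their linear signals summed to 48126 in Adam19+/+ and 44697 in Adam19-/- cells, a ratio of 0.929. Over all bright genes this ratio was 1.02. Such a sum is weighted to its brightest genes. Kcnmb1, the beta subunit of the calcium-activated potassium channel of smooth muscle, was at 8.99 and 8.72, and Itga8 at 10.53 and 10.12. Cardiomyocytes also make Cacna1c, and 12 of their 16 markers were higher, where 51.7% of all genes and 6491 of 9969 bright genes were higher. The summed signal of these markers was 11902 and 12928, a ratio of 1.09, against 1.02 for all genes. The part of either cell type in the signal of Cacna1c was not tested.

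The alpha1 subunits of presynaptic calcium channels differed little. Cacna1b, the N-type pore that triggers transmitter release from autonomic neurons, was at 8.53 and 8.57, a difference of 0.04 that turned to -0.01 after quantile normalisation. Cacna1a, the P/Q-type pore, was at 8.16 and 8.11, a difference of -0.05. The R-type pore Cacna1e was dim, at 6.63 and 6.75. Beside these, autonomic neuron markers, all bright, were higher in 12 of 16 cases, where 6491 of 9969 bright genes were higher. The median of these markers was 0.11, and their summed signal was 27515 and 29524. This was a ratio of 1.07, against 1.02 for all bright genes. The 4 largest differences were those of the catecholamine enzymes Th and Dbh, at 0.46 and 0.43, and of Gata3 and Chga, at 0.35 and 0.34. Snap25 and Syt1 differed by 0.04 and -0.10, and 4 of the 16 markers were lower. The part of neuron number in the channel signals was not tested.

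Among the T-type alpha1 subunits, which open at low voltage and support pacing, Cacna1g and Cacna1h were bright. Cacna1g was at 10.39 and 10.38, a difference of -0.01. Cacna1h was at 9.13 and 9.32, a difference of 0.20 or 1.14-fold. The class thus held a bright gene with nearly the same signal on both arrays and a bright gene that was higher in Adam19-/- cells. Cacna1i, the third gene of the class, had exactly the same value on both arrays, 5.53.

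Of the alpha2delta subunits, Cacna2d1 was bright and slightly higher. Cacna2d1, the widely expressed form and a target of gabapentin, was at 9.58 and 9.73 in its brighter cluster, a difference of 0.15. Its other cluster was at 9.35 and 9.37, a difference of 0.02, so that both clusters were higher but by unequal amounts. Cacna2d3 lay on the middle level itself, at 8.02 and 7.99, and differed by -0.03. Cacna2d2, known from the cerebellum, was at 7.21 and 7.18, and the retinal Cacna2d4 was at 6.34 on both arrays.

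Only Cacnb1 of the measured beta subunits was bright, and the others were dim and lower by small amounts. Cacnb1 was at 9.76 and 9.78, a difference of 0.02 that turned to -0.02 after quantile normalisation and to -0.01 after median centring. It encodes the beta subunit best known from skeletal muscle, where it partners Cacna1s. Cacnb4, a neuronal form, was at 6.71 and 6.57, a difference of -0.14. Cacnb2, the cardiac form, was at 6.40 and 6.35, but its cluster rests on a single accession of the annotation and may represent only part of the gene. The same limit holds for the clusters of Cacna2d3 and Cacna1i and for the brightest cluster of Scn2a.

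The gamma class held the largest differences of all channel genes. Its members resemble the gamma subunit of the skeletal muscle calcium channel, Cacng1, but most are transmembrane AMPA receptor regulatory proteins (TARPs), which carry AMPA-type glutamate receptors to the surface and slow their gating. Cacng3 was at 9.00 and 9.45, a difference of 0.45 and the 148th largest increase of all genes. Cacng8, another TARP gene, was at 7.19 and 7.50, a difference of 0.31 and the 625th largest increase. Cacng3 was bright on both arrays, whereas Cacng8 was under the middle level on both.

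The other TARP genes differed less. Cacng4 was at 10.86 and 10.92 and Cacng7 at 10.76 and 10.80, differences of 0.07 and 0.04, and both were bright. Cacng2 (stargazin) was at 7.67 and 7.85 in its brighter cluster, a difference of 0.18, while its other cluster, at 6.41 and 6.43, gave 0.02. The brighter Cacng2 cluster does not list the RefSeq transcript of the gene among its accessions, and the dimmer one does. Cacng5 was at 7.27 and 7.20 and Cacng1 at 7.03 and 6.96, both dim and lower by 0.07. In all, 5 of 7 genes of the class were higher, with a median of 0.07, where 51.7% of all genes were higher, with a median of 0.01.

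Promoter windows, the 250 bases before the start of a gene in RefSeq (GRCm38.p6), were found for 27 of the 35 members, 37 windows in all since some genes have several starts. Their median was 9 CpG and 56.8% GC, beside 6 CpG and 52.4% GC over all 32851 windows. Both strands were searched for exact matches to short motifs. The GC box was GGGCGG. The TATA box was TATAAA. The CCAAT box was searched as its own letters. The cyclic AMP response element was TGACGTCA. A GC box occurred in 14 of the 37 windows (37.8%, against 32.7% of all windows), a CCAAT box in 9 (24.3% against 33.8%) and a TATA box in 2 (5.41% against 12.4%). The matches to the TATA box lay in a window of Cacna1d and a window of Scn2a. They were counted anywhere in the window, so that their distance from the start is not given. Neither the cyclic AMP response element, in 1.55% of all windows, nor the left part of the site of the neuronal repressor REST (TTCAGCACC, in 0.301%), was found in a window of a channel gene. Which of its starts a gene with several windows uses in these cells is not measured by the array.

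**Figure D2:**
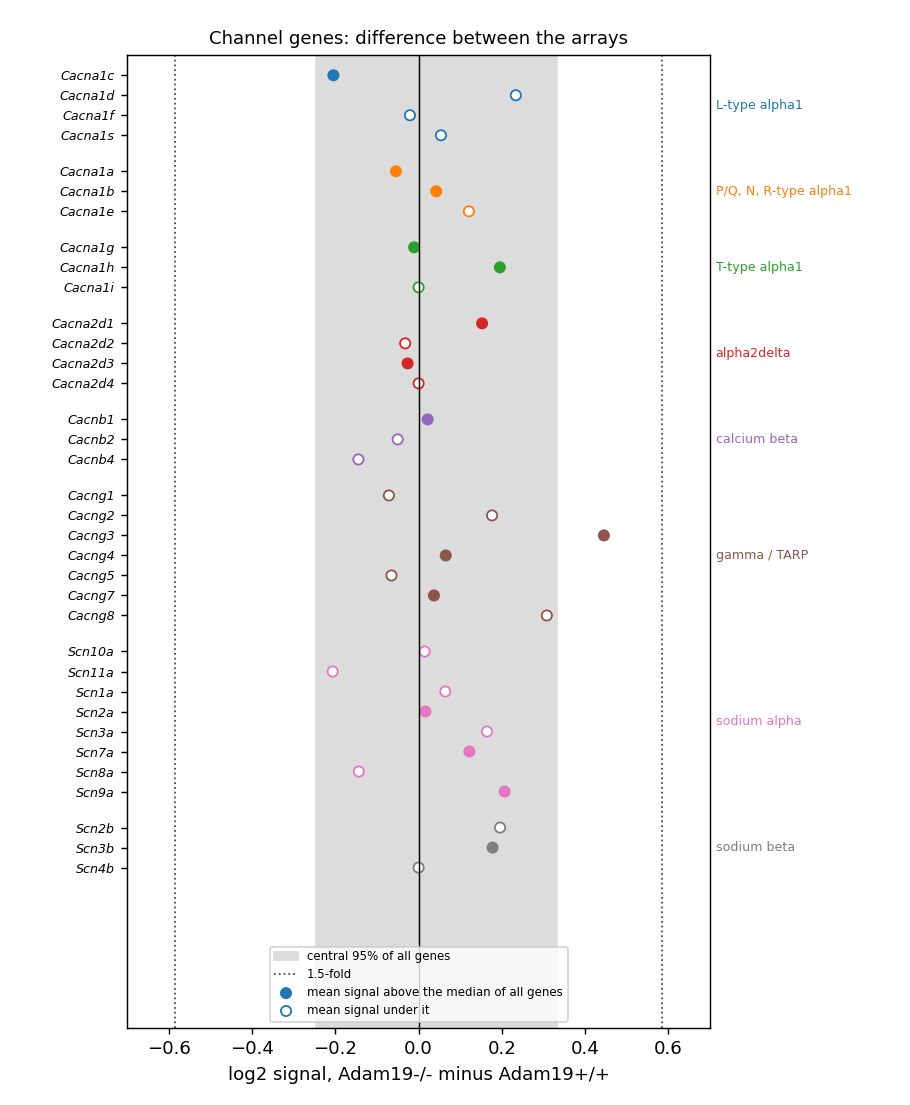
Log2 signal of Adam19-/- minus Adam19+/+ for each channel gene (rows, by subunit class; 1 array per genotype), with filled points for genes whose mean signal lies above the median of all genes and open points for those under it. The grey band is the central 95% of all genes, -0.25 to 0.33, and the dotted lines mark 1.5-fold; Cacng3 at 0.45 is the only point outside the band.

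Of the 8 sodium channel alpha subunits, 6 were higher and 2 lower by small amounts, with a median of 0.04, but after median centring 4 were higher and 4 lower, and 51.7% of all genes were higher as deposited. Scn9a, a pore of sensory and sympathetic neurons, was at 7.96 and 8.16 in its brighter cluster, a difference of 0.21 or 1.15-fold. Its other cluster, at 7.51 and 7.52, gave 0.02, so the size of the difference rests on the choice of cluster. Scn7a, an unusual member of the family that senses sodium concentration and is known from glia and nerve, was at 8.34 and 8.46, a difference of 0.12. Markers of Schwann cells and glia were lower in 7 of 10 cases on the same array, where 34.1% of all genes were lower. The median of these markers was -0.07. Their summed signal was 21546 and 20175, a ratio of 0.936, against 1.02 for all genes. The brightest of these markers, Fabp7, at 13.45 and 13.30, had the largest part in this sum.

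Of the other sodium channel alpha genes, Scn2a was bright and is described below, and the rest were dim. Scn3a, an embryonic neuronal pore, was at 6.29 and 6.45, a difference of 0.16. Scn8a, the main pore of mature axon initial segments and nodes, was at 6.92 and 6.78, a difference of -0.14. Scn1a was at 4.82 and 4.88, and the pores of pain-sensing neurons Scn10a and Scn11a were at 5.53 and 5.54 and at 5.17 and 4.96. Scn11a thus differed by -0.21, about as much as Cacna1c, but at a signal near the bottom of the scale, 4.09, and adding 32 to the linear signal shrank it to -0.11. The difference of 0.01 of Scn10a turned to -0.02 after median centring.

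Scn2a, a neuronal pore known from the brain, was covered by 14 clusters, which show how far clusters of 1 gene can part on these arrays. Its brightest cluster was at 8.11 and 8.13, a difference of 0.02. Over the 14 clusters the mean signal ran from 5.69 to 8.12 and the difference from -0.24 to 0.25, with 7 higher and 7 lower, a median of -0.01 and an SD of 0.14. The cluster next in brightness, at 7.85 and 8.11, gave the highest difference, 0.25, and the one after it, at 7.70 and 7.46, the lowest, -0.24. The sign of Scn2a was therefore not settled: it was positive for the brightest cluster, and negative for the mean of all clusters, after quantile normalisation and after median centring. Apart from Cacng3 and Cacng8, every member's difference lay within the range that the clusters of Scn2a span. Only 1 of these 14 clusters was bright, however. The central 95% of differences ran from -0.28 to 0.36 among dim genes and from -0.20 to 0.29 among bright genes. The range of Scn2a is therefore no measure of the spread of bright members.

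Over the 999 genes with at least 2 clusters, the differences given by the 2 brightest lay a median of 0.07 apart, with a 95th percentile of 0.29. For the 571 genes whose 2 brightest clusters were both bright these values were 0.05 and 0.24. The difference of Cacng3, 0.45, is larger than this gap, but the gap holds no variation between embryos. Cacng3 was also singled out as the largest difference of the 35 members, and it has only 1 cluster. The comparison therefore cannot tell whether the difference of Cacng3 passes the technical spread.

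**Figure D3:**
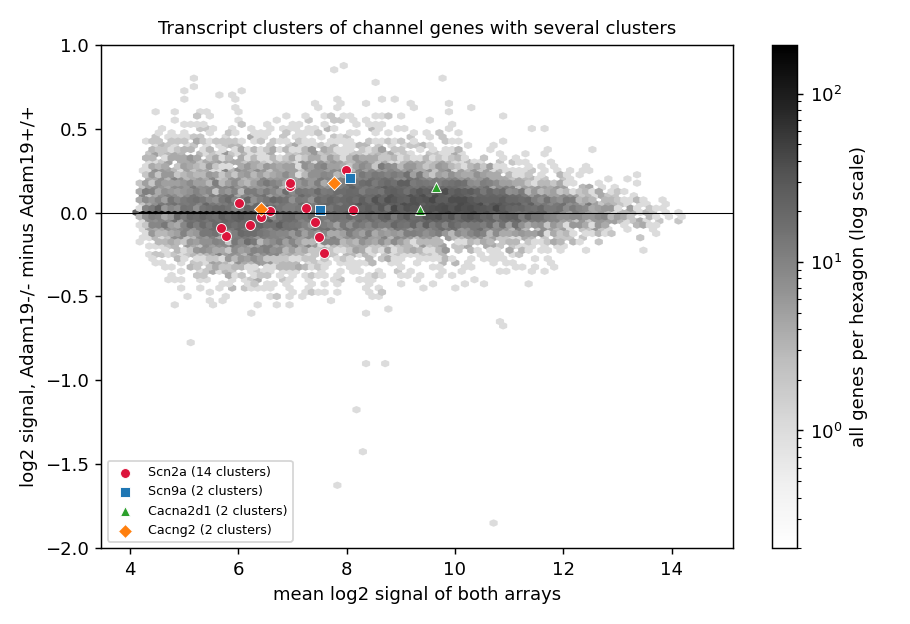
Difference between the arrays (Adam19-/- minus Adam19+/+, log2) against the mean log2 signal of both arrays, for all genes (grey hexagons, darker for more genes on a log scale) and for each cluster of the 4 channel genes with several clusters. The 14 clusters of Scn2a (red circles) spread from -0.24 to 0.25 around 0, while both clusters of Scn9a, Cacna2d1 and Cacng2 lie above 0.

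The sodium channel genes Scn3a, Scn2a, Scn1a, Scn9a and Scn7a lie near one another on chromosome 2. All 5 were higher, from 0.02 for Scn2a to 0.21 for Scn9a, with a median of 0.12, where 51.7% of all genes were higher. This group was picked out after its values had been seen, and the sign of Scn2a depends on the cluster and the scaling. These paralogs are alike in sequence, and 3 further clusters were annotated to more than 1 of them and were not used above. The cluster shared by Scn2a, Scn9a and Scn3a was at 6.47 and 6.74, that shared by Scn3a and Scn1a at 7.44 and 7.55, and that shared by Scn9a and Scn3a at 6.19 and 6.23. How far a probe of one gene binds RNA of another was not tested.

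The bright sodium channel beta subunit was Scn3b. Scn3b, which modulates neuronal and cardiac sodium channels, was at 10.52 and 10.70, a difference of 0.18 or 1.13-fold. Scn2b, a beta subunit that binds its alpha subunit through a disulfide bond, was at 7.77 and 7.96, a difference of 0.20. Scn4b was at 5.44 on both arrays, so 2 of the 3 measured beta genes were higher and 1 was equal, where 51.7% of all genes were higher.

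Adam19 lies on chromosome 11, as do 5 of the channel genes, Cacna1g, Cacnb1, Cacng1, Cacng4 and Cacng5. These differed by between -0.07 and 0.07 (median -0.01), beside 0.01 for all 1566 genes on that chromosome.

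Genes whose products bind, modulate or anchor the channels differed in both directions. Of 36 measured, 12 were higher, 19 were lower and 5 had equal values. Over all genes 51.7% were higher, 34.1% lower and 14.2% equal. The median of these 36 was -0.003, beside 0.01 for all genes. None passed 0.32 in either direction, against 2.72% of all genes higher and 1.03% lower. Rrad, a small GTPase that restrains L-type channels, was at 8.97 and 9.17, a difference of 0.20, and Stac, an adaptor of L-type channels, was at 9.53 and 9.37, a difference of -0.16. Tspan13 differed by 0.14 and Slmap by -0.14. The sodium channel modulators Fgf11, Fgf12, Fgf13 and Fgf14 differed by 0.04, -0.10, -0.09 and -0.03, and the anchors Ank2 and Ank3 by -0.13 and 0.08.

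Genes that store, pump and release calcium gave 17 higher and 16 lower of 34 measured, and the median difference was 0.002. Pln, which encodes phospholamban, the brake of the calcium pump of the sarcoplasmic reticulum, was at 8.06 and 8.60, a difference of 0.54 or 1.46-fold. Pln and Atp2a3, at 0.37, were the members past 0.32, against 2.72% of all genes higher and 1.03% lower by that much. Atp2a3 was dim, at 7.08 and 7.45. Pln is also one of the 16 cardiomyocyte markers listed, of which 12 were higher, 3 lower and 1 equal. The differences of these markers ran from -0.22 for Tnnc1 to 0.78 for Myl7. Jph2 and Casq1, which organise and fill the calcium store of muscle, differed by -0.23 and -0.22, and the release channel Itpr2 by 0.18. The pump Atp2a2 was at 12.04 and 12.09.

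Of 13 related leak, pacemaker and endolysosomal channels, 5 were higher and 6 were lower, and the median difference was 0. Hvcn1, a proton channel of immune cells, was at 8.21 and 8.38, a difference of 0.17. On the same array 15 of 16 leukocyte markers were higher and 1 was equal, where 51.7% of all genes were higher. The summed signal of these markers was 2519 and 3311, a ratio of 1.31, against 1.02 for all genes. The part of leukocytes in Hvcn1 was not tested. Hcn4, the pacemaker channel of the sinoatrial node, was at 7.95 and 8.12, a difference of 0.17. Nalcn, the sodium leak channel that sets resting excitability, was at 8.86 and 8.73, a difference of -0.13, and Tpcn2 differed by -0.03.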

How the data were processed

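Total RNA of sorted cells was labelled with biotin and hybridised to Affymetrix Mouse Gene 1.0 ST arrays, per the labels' protocols, with 1 array per genotype. The authors deposited 1 value per transcript cluster and array, 28853 clusters in all. Their background correction, normalisation and probe summary are not stated in the labels. The deposited values were read as log2 signals, since as natural logarithms the highest, 14.52, would exceed what a 16-bit scanner records. They were not normalised again. Medians over all clusters were 7.49 (Adam19+/+) and 7.52 (Adam19-/-), and 15.5% of clusters had equal values on both arrays. The number of arrays limits the precision.

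Gene names came from the array's annotation of 2016, updated by Entrez identifier from a RefSeq gene table (GRCm38.p6). A single symbol was given for 21789 clusters, several for 1621 and none for 5443. Of the first, 21698 were found in that table, and 91 stayed under their old name. The brightest cluster by the mean of both arrays stood for a gene. Differences, folds and medians were computed without tests (Python 3.11.15, numpy 2.4.6, pandas 2.3.3, matplotlib 3.10.9), and the counting steps were tested on simulated data.

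Some genes of these families are not analysed here. The members and the lists were chosen with earlier results of these data known. By the rule for named genes, both values were given for members that were bright or differed by at least 0.32 on the log2 scale, and up to 4 bright genes with the largest absolute difference from each list of other genes were named. Values of the dim members and of further list genes were added after they had been seen. Alternatives were quantile normalisation, median centring, a pseudocount of 32 on the linear scale, the mean of clusters and other expression levels.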

Additional observations from a re-analysis of the deposited data

How the results depend on the processing

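No member passed 1.5-fold or 2-fold as deposited, after quantile normalisation, after median centring, with the pseudocount of 32 or with the mean of clusters. The median difference of the members, 0.02, was 0.02 after quantile normalisation, -0.01 after median centring, 0.02 with the pseudocount, 0.02 with the mean of clusters and 0.04 among bright members only. With the expression level at the 75th percentile of genes, 9.76, 5 members were bright in place of 15. With at least 1 array above the median level, 15 were. The sign turned for 3 of 35 members after quantile normalisation (Cacna1b, Cacnb1 and Scn2a), for 3 after median centring (Cacnb1, Scn10a and Scn2a), for 1 with the mean of clusters (Scn2a) and for 0 with the pseudocount, and the largest difference among these, 0.04, was that of Cacna1b. The 3 members with equal values are not counted among them. The mean of clusters moved Scn9a by 0.10, since its 2 clusters gave 0.21 and 0.02. The pseudocount moved Scn11a by 0.10, since its signal lay near the bottom of the scale. The cause of the differences between the arrays was not tested. No paired analysis was possible because each genotype had 1 array.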
